A study of Mus musculus with 9 samples.

Results

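The Wnt ligands, their Frizzled receptors and the secreted inhibitors of Wnt signalling were followed in mouse skin treated with bleomycin, with or without topical nitrate. Protein-coding genes were taken by symbol, as Wnt, Fzd, Sfrp or Dkk followed by a number, together with Frzb and Wif1. This gave 39 of the 54532 genes in the table, namely 19 Wnt ligands, 10 Frizzled receptors and 10 secreted inhibitors. RNA was sequenced from skin in 3 groups of 3 libraries. The groups were bleomycin plus topical nitrate (nitrate 1 to 3), bleomycin alone (bleomycin 1 to 3) and healthy control skin (control 1 to 3), all from mice labelled wild type. Bleomycin, a DNA-breaking antibiotic, causes fibrosis of mouse skin that serves as a model of systemic sclerosis, and nitrate can be reduced in tissue to nitrite and nitric oxide. The sources used here give no dose, time, strain, sex, age or number of animals. The p-values therefore measure the spread between these libraries, which may be technical.

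Wnt proteins are secreted, lipid-modified ligands that bind the extracellular cysteine-rich domain of Frizzled receptors. With the co-receptors Lrp5 and Lrp6, Frizzled receptors stabilise beta-catenin, which switches on target genes together with Tcf and Lef factors, while other Wnt proteins act through Ror and planar polarity proteins without beta-catenin. Secreted Frizzled-related proteins (Sfrp and Frzb) and Wif1 bind Wnt proteins outside the cell, and Dkk1, Dkk2 and Dkk4 bind Lrp5 and Lrp6. In skin, Wnt signals start hair follicles, drive their growth phase (anagen), act on dermal fibroblasts and have been linked to fibrosis.

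Levels are given as FPKM, a read count scaled by gene length and library size, so that genes of different length can be compared. A difference between groups is the limma estimate on log2(FPKM + 1), given with its standard error, and it understates the change of genes at low levels. Genes count as called, or as higher or lower by the test, where p, adjusted by Benjamini-Hochberg over all 14645 genes tested, was under 0.05. Genes with at least 1 FPKM in at least 3 of the 9 libraries were tested. Of the 39 genes 29 were tested, and none of them entered through 1 group only. The libraries held 15804050 to 18352592 reads. In such bulk tissue, fewer cells of a type and less RNA per cell cannot be told apart.

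The libraries differed in tissue content within and between groups. The 21 genes of an anagen hair follicle list averaged 8.01 (nitrate 1), 5.72 (nitrate 2) and 8.47 (nitrate 3) on the log2(FPKM + 1) scale. The mean was 1.11 for bleomycin 1, 5.58 for bleomycin 2 and 6.94 for bleomycin 3, and 0.19 for control 1, 3.69 for control 2 and 6.01 for control 3. Bleomycin 1 and control 1 were the lowest, and the libraries of a group differed most in bleomycin and control. Summed FPKM of 8 skeletal muscle genes ran from 2051 to 9197 in nitrate, 2716 to 12328 in bleomycin and 13161 to 19870 in control libraries. Sums of 7 adipocyte genes were 189 to 808, 792 to 943 and 1230 to 1866, of 9 fibroblast genes 1293 to 1990, 1315 to 2023 and 3804 to 4869, and of 6 endothelial genes 64.8 to 129, 84.6 to 102 and 155 to 181, in nitrate, bleomycin and control. These sums were lower in both treated groups, without overlap with control. In the fibroblast list this rested on Col1a1 and Col1a2, and its other 7 genes summed to 292 to 495, 277 to 436 and 468 to 744 FPKM in nitrate, bleomycin and control, with nitrate 2 inside the control range. Leukocyte sums (8 genes) were 262 to 549, 737 to 1214 and 276 to 410, and melanocyte sums (5 genes) 33.0 to 168, 38.6 to 86.5 and 6.68 to 23.1, in the same order. Keratinocyte sums (8 genes of the epidermis) of 5424 to 9033, 7867 to 11206 and 2913 to 5030 marked every library as skin, and mitochondrial genes took 2.84 to 4.49%, 3.77 to 4.17% and 6.61 to 8.02% of reads. Of these 7 lists, no gene was below 0.5 FPKM in all libraries.

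Sfrp2, Fzd4, Wnt11 and Fzd1 stand for the main patterns, and the sequence before the RefSeq start of each is shown for that reason. Sfrp2 differed most with bleomycin, Fzd4 was lower than control in both treated groups, and Wnt11 and Fzd1 were higher than control with nitrate. The sequences are those of RefSeq (GRCm38.p6), 5′ to 3′ on the strand of the gene, 250 bases long except for Fzd4, where 239 bases lie before the start of the gene in the deposited table. Sfrp2 is at chr3:83766071-83766320 on the plus strand, Fzd4 at chr7:89404116-89404354 on the plus strand, Wnt11 at chr7:98834862-98835111 on the plus strand and Fzd1 at chr5:4758217-4758466 on the minus strand. The deposited table starts Fzd1 at base 4758035, so the Fzd1 window lies upstream of that start and does not reach it. Capitals mark 2 letter patterns, TCAAAG, which is the core bound by Tcf and Lef factors (CTTTGA) read on the other strand, and TATAAA, the letters of a TATA box.
Sfrp2: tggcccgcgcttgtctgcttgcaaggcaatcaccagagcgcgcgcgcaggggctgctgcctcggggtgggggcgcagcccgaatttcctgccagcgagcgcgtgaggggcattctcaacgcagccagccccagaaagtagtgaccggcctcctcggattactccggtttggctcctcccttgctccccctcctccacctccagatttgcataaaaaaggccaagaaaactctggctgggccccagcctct
Fzd4: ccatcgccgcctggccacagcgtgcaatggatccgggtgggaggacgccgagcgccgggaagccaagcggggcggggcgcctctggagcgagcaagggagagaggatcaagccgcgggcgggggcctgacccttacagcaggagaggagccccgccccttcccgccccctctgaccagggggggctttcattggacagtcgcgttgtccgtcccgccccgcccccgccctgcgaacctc
Wnt11: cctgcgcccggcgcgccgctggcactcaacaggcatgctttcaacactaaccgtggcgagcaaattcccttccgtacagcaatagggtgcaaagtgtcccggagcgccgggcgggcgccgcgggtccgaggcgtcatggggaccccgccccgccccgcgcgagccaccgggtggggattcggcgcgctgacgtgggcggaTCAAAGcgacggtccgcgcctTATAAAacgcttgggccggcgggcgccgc
Fzd1: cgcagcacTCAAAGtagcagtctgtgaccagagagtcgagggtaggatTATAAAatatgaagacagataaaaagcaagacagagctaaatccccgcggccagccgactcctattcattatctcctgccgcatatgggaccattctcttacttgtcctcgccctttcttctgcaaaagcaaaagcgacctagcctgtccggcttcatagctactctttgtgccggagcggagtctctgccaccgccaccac
Counted from the RefSeq starts, the Tcf/Lef core lay 50 bases before Wnt11 and 242 bases before Fzd1, and TATAAA 29 and 202 bases before them. Wnt11 has a further RefSeq start, whose window held neither pattern. Sfrp2 and Fzd4 held neither pattern in these windows. Both strands were searched in the 30 windows of the 27 genes found in the table. The Tcf/Lef core was found in 5 of 30 windows (of Dkk1, Frzb, Fzd1, Wnt11 and Wnt5b), against 13.8% of all 32851 windows, TATAAA in 5 of 30 against 12.4%, and the AP-1 pattern TGANTCA in 1 of 30 (of Wnt5b) against 6.75%. The AP-1 pattern can share its outer TGA or TCA with the Tcf/Lef core, and TATAAA can share bases with neither. A match is a match of letters and not a measured site.

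The Wnt family in this skin was led by Wnt4, Wnt10a and Wnt3 among ligands, by Fzd1, Fzd4 and Fzd7 among receptors, and by Dkk3, Sfrp1 and Sfrp2 among inhibitors, ordered by mean FPKM over the 9 libraries. These means were 18.3, 13.6 and 8.94 FPKM for the ligands, 36.0, 21.9 and 19.3 FPKM for the receptors and 18.4, 14.2 and 9.57 FPKM for the inhibitors. The order differed between groups. Sfrp2 averaged 5.11 FPKM in nitrate, 20.1 FPKM in bleomycin and 3.54 FPKM in control skin, and was among the first 3 inhibitors in bleomycin skin alone. Fzd4 led the receptors in control skin, and Wnt3 was below Wnt11 in nitrate and below Wnt7b in control skin. All 10 receptors averaged at least 1 FPKM, as did 11 of 19 ligands and 8 of 10 inhibitors. Summed over the role, ligands reached 87.1 ± 19.1 FPKM in nitrate, 80.9 ± 4.34 in bleomycin and 54.6 ± 10.2 in control skin (SD, n = 3 each). Receptors reached 171 ± 17.9, 109 ± 14.7 and 113 ± 15.4 FPKM, and inhibitors 74.2 ± 10.3, 75.7 ± 17.6 and 53.8 ± 13.7 FPKM, in the same order. Ligand sums of both treated groups and receptor sums of nitrate lay above every control library.

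**Figure D1:**
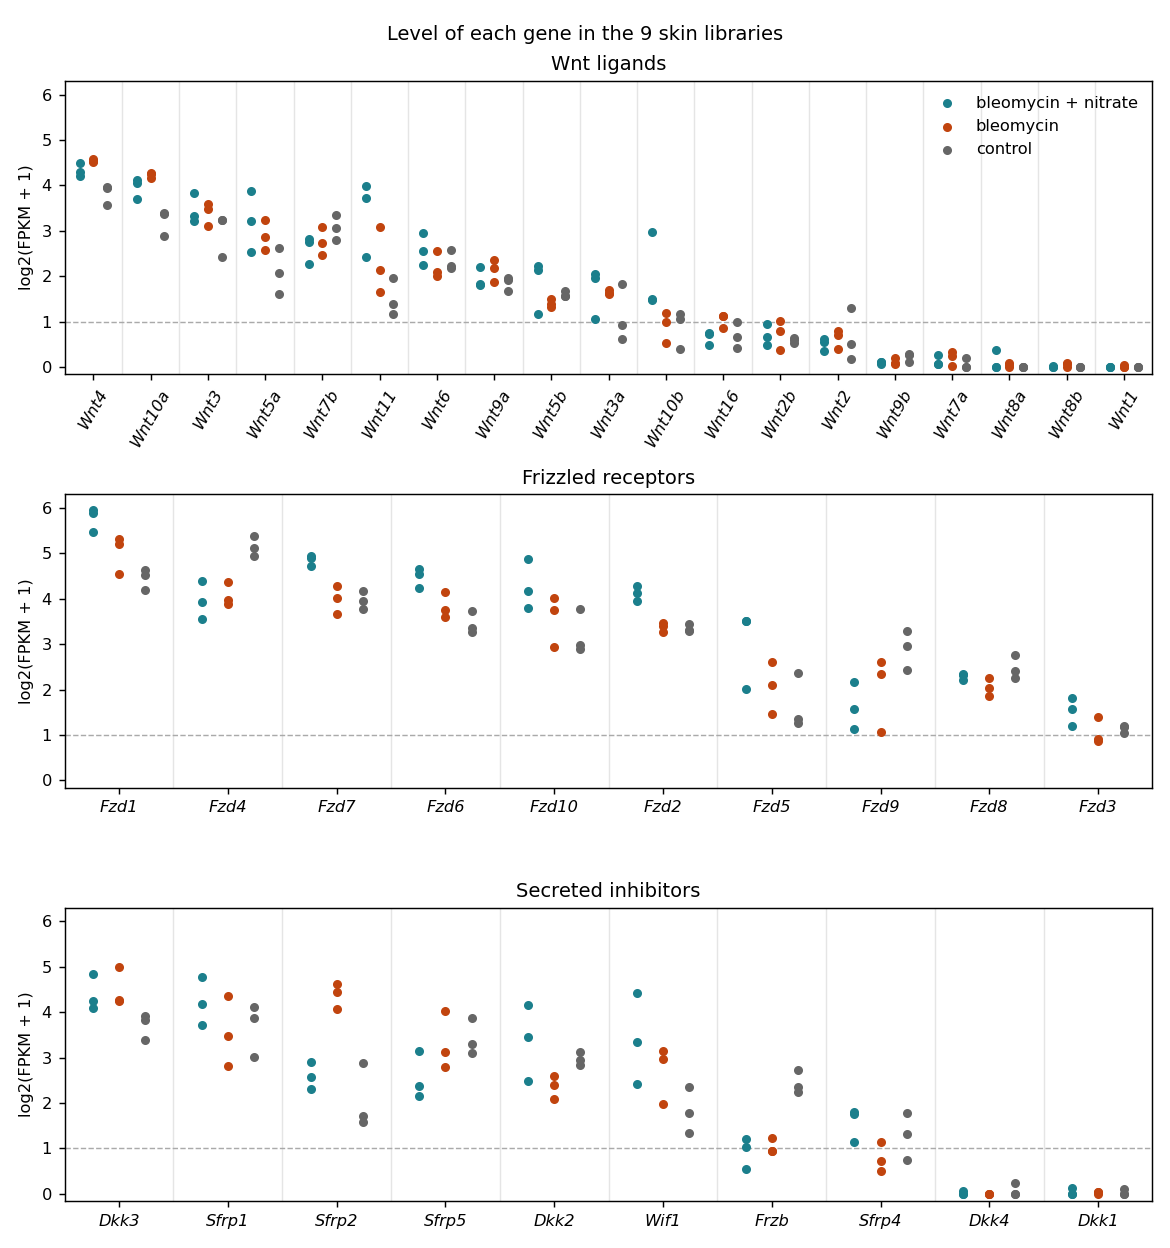
Level of each of the 39 genes as log2(FPKM + 1), with 1 point per library, for ligands, receptors and inhibitors ordered by mean; the dashed line is 1 FPKM. Fzd1 is the highest gene, Sfrp2 stands high in the 3 bleomycin libraries, and Frzb and Fzd4 stand high in the 3 control libraries.

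Among the ligands, 2 of the 11 tested rose with bleomycin against control and none fell, beside 4.74% of all genes higher and 3.69% lower. Wnt4, which acts in development of kidney and female reproductive tract and in skin epithelium, and Wnt10a, a ligand of epidermis, hair follicle and tooth, were the 2 most abundant ligands and both rose. Wnt4 lies at chr4:137277489-137299726 (plus strand, mm10) and Wnt10a at chr1:74791516-74804179 (plus strand). Wnt4 had 18.7, 17.4 and 21.5 FPKM in nitrate 1, 2 and 3, against 22.3, 22.9 and 21.8 FPKM in bleomycin 1, 2 and 3 and 14.5, 10.8 and 14.5 FPKM in control 1, 2 and 3. Values of other genes follow the same order of libraries. Wnt10a had 15.6, 11.9 and 16.3 FPKM in the nitrate, 17.0, 17.9 and 18.2 FPKM in the bleomycin and 9.49, 6.43 and 9.32 FPKM in the control libraries. For both genes every bleomycin library was above every nitrate library, and every nitrate library above every control library. The mean of Wnt4 was 1.69 times that of control in bleomycin skin, with a difference of 0.72 ± 0.13 and adjusted p = 0.0174. That of Wnt10a was 2.11 times control, with a difference of 1.01 ± 0.16 and adjusted p = 0.0117. Against control, nitrate skin differed by 0.51 ± 0.13 for Wnt4 (adjusted p = 0.0523, not called) and by 0.73 ± 0.16 for Wnt10a (adjusted p = 0.0353, higher). Nitrate minus bleomycin was -0.22 (95% interval -0.52 to 0.09) for Wnt4 and -0.27 (-0.65 to 0.10) for Wnt10a, neither called. The interfollicular keratinocyte list moved with these genes, with 2 of 8 members higher in bleomycin than in control (Krt14 and Krt1), beside 4.74% of all genes. The part of this list in Wnt4 and Wnt10a was not tested.

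The Wnt10a and Wnt4 calls with bleomycin ended without bleomycin 1 and control 1, the 2 libraries lowest in follicle genes, with differences of 1.12 and 0.79 (adjusted p = 0.0726 and 0.0952). Leaving out bleomycin 1, 2 or 3 or control 2 also ended that of Wnt4 (adjusted p = 0.0555, 0.0518, 0.0523 and 0.0555). The call of Wnt10a in nitrate against control was lost in 12 of 21 alternatives, among them leaving out any single library other than nitrate 2 (adjusted p of 0.0514 to 0.114), while the difference stayed between 0.57 and 0.86, and Wnt4 passed in that comparison without nitrate 2, with sample weights and with voom on recovered reads (adjusted p = 0.0344, 0.0428 and 0.0495).

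Wnt11 (chr7:98835112-98855195, plus strand), a ligand that acts mostly without beta-catenin, had the widest range of the abundant ligands and rose in nitrate against control. It had 12.1, 4.39 and 14.9 FPKM in the nitrate, 2.15, 3.39 and 7.52 FPKM in the bleomycin and 1.25, 1.62 and 2.88 FPKM in the control libraries. Each nitrate library was above each control library, while the bleomycin libraries overlapped both groups. The nitrate mean was 5.45 times that of control, with a difference of 1.87 ± 0.48 and adjusted p = 0.0479. The call was lost in 13 of 21 alternatives, among them voom on recovered reads (adjusted p = 0.0713) and leaving out any single library other than nitrate 2 (0.0515 to 0.154). Within every group Wnt11 had the same order of libraries as the follicle list, as had Wnt10b. Of the 29 genes 2 did so, beside 2.43% of the genes tested, and with the list mean as a term in the fit the nitrate minus control difference of Wnt11 was 0.99 (adjusted p = 0.300).

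Wnt5a, the main ligand of the Ror receptors, had 8.26, 4.74 and 13.8 FPKM in the nitrate, 4.96, 8.46 and 6.26 FPKM in the bleomycin and 2.04, 3.22 and 5.18 FPKM in the control libraries. Its groups overlapped, and it was not called against control with nitrate (1.10 ± 0.37, adjusted p = 0.0920) or with bleomycin (0.79 ± 0.37, adjusted p = 0.216). Without nitrate 2 the nitrate minus control difference was 1.44 and passed (adjusted p = 0.0287). Wnt10b, a beta-catenin ligand known to hold back fat cell formation, had 1.81, 1.78 and 6.91 FPKM in the nitrate, 0.451, 0.984 and 1.27 FPKM in the bleomycin and 0.308, 1.08 and 1.25 FPKM in the control libraries. Every nitrate library was above all others, with nitrate 3 alone far above. Neither difference passed, at 1.08 ± 0.42 against bleomycin (adjusted p = 0.228) and 1.11 ± 0.42 against control (adjusted p = 0.118). In nitrate against bleomycin no gene of any kind was called, and all 7 adipocyte genes had estimates below 0, with a median of -1.05. In nitrate against control 4 of the 7 were lower, beside 4.90% of all genes. The part of the adipocyte list was not tested.

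The remaining tested ligands passed in no comparison. Wnt3, a beta-catenin ligand, had 8.24, 9.02 and 13.2 FPKM in the nitrate, 10.1, 7.56 and 11.1 FPKM in the bleomycin and 8.38, 4.37 and 8.49 FPKM in the control libraries. Wnt7b, a beta-catenin ligand of epithelia and hair follicle, was the one tested ligand with a negative estimate for nitrate minus control (-0.46, 95% interval -0.97 to 0.04). It had 5.75, 6.10 and 3.80 FPKM in the nitrate, 5.61, 4.49 and 7.44 FPKM in the bleomycin and 7.40, 5.998 and 9.23 FPKM in the control libraries. Wnt6 had 3.73, 4.91 and 6.74 FPKM in the nitrate, 4.90, 3.29 and 3.03 FPKM in the bleomycin and 3.52, 3.66 and 4.93 FPKM in the control libraries. The groups of Wnt3, Wnt7b and Wnt6 overlapped in every pairing. Wnt9a, with the narrowest range of the 29 genes (1.88 times from lowest to highest), had 2.57, 3.61 and 2.49 FPKM in the nitrate, 4.09, 2.64 and 3.54 FPKM in the bleomycin and 2.18, 2.91 and 2.75 FPKM in the control libraries. Wnt5b, a relative of Wnt5a, had 1.25, 3.64 and 3.39 FPKM in the nitrate, 1.80, 1.61 and 1.496 FPKM in the bleomycin and 1.97, 2.17 and 1.95 FPKM in the control libraries. Its bleomycin libraries were all below the control libraries, yet the difference of -0.20 ± 0.25 did not pass. Wnt3a, the ligand most used to switch on beta-catenin in culture, had 2.86, 1.09 and 3.12 FPKM in the nitrate, 2.09, 2.05 and 2.26 FPKM in the bleomycin and 0.900, 0.539 and 2.54 FPKM in the control libraries.

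The other 8 ligands were too low to test. Group means in nitrate, bleomycin and control were 0.584, 1.06 and 0.629 FPKM for Wnt16, 0.636, 0.681 and 0.501 FPKM for Wnt2b, and 0.421, 0.554 and 0.667 FPKM for Wnt2. Wnt9b, Wnt7a, Wnt8a, Wnt8b and Wnt1 stayed below 0.5 FPKM in every library, with means over all libraries of 0.106, 0.1005, 0.0447, 0.0150 and 0.00287 FPKM. Wnt1 was seen in 1 read in all, so that its level was not distinguishable from 0 at this depth, since by counting error a gene listed at 0 could have had up to 3 reads.

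Several ligand genes lie side by side on the mouse genome, with no other protein-coding gene between them. Wnt6 and Wnt10a lie 6193 bases apart on chromosome 1, with means of 4.30 and 13.6 FPKM over the 9 libraries. Wnt9b and Wnt3 lie 24328 bases apart on chromosome 11, with means of 0.106 and 8.94 FPKM, and Wnt10b and Wnt1 lie 11706 bases apart on chromosome 15, with 1.76 and 0.00287 FPKM. Wnt3a and Wnt9a, 16175 bases apart on chromosome 11, were closer in level, at 1.94 and 2.98 FPKM. Wnt9b and Wnt1 stayed below 0.5 FPKM in every library beside a neighbour that averaged above 1 FPKM. In the other pairs both genes averaged above 1 FPKM. For bleomycin minus control the estimates were -0.10 ± 0.22 for Wnt6 and 1.01 ± 0.16 for Wnt10a, and the difference between the 2 genes was not tested.

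Of the 10 receptors, 1 differed between bleomycin and control skin by the test, beside 8.43% of all genes. This was Fzd4, which fell. Fzd4 (chr7:89404355-89413134, plus strand) is a receptor of Wnt proteins and of Norrin and is known for its role in vessels. It had 14.2, 20.0 and 10.8 FPKM in the nitrate, 19.7, 13.8 and 14.6 FPKM in the bleomycin and 29.6, 40.4 and 34.0 FPKM in the control libraries. All 6 treated libraries were below all 3 control libraries. The control mean was 2.16 times that of bleomycin (bleomycin minus control -1.07 ± 0.23, adjusted p = 0.0276) and 2.31 times that of nitrate (nitrate minus control -1.19 ± 0.23, adjusted p = 0.0256). Nitrate minus bleomycin was -0.12, with a 95% interval of -0.64 to 0.40. Of 6 endothelial markers, 2 (Tek and Cldn5) were lower in bleomycin than in control, beside 3.69% of all genes. In nitrate 3 of them (Cdh5, Kdr and Tek) were lower than in control, beside 4.90% of all genes. All 6 estimates were below 0 in both comparisons, with medians of -0.65 for bleomycin and -0.95 for nitrate. The part of these markers in the Fzd4 result was not tested.

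The Fzd4 call with bleomycin was lost when bleomycin 2, bleomycin 3 or control 1, 2 or 3 was left out (adjusted p = 0.0806, 0.0917, 0.0515, 0.106 and 0.0719), when bleomycin 1 and control 1 were both left out (0.0776) and with no filter on low genes (0.0630). The difference stayed between -1.32 and -0.96. In nitrate against control it was lost without nitrate 1, nitrate 3 or control 1, 2 or 3 (0.0511 to 0.101), without both follicle-low libraries (0.0798), with the follicle list in the fit (0.192), with no filter (0.0612) and with only these 2 groups fitted (0.0555), with differences between -1.40 and -0.99 throughout.

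Against control, 4 of 10 receptors rose in nitrate skin, beside 3.63% of all genes. They were Fzd1, Fzd7 and Fzd2, which form a subfamily by sequence, and Fzd6, which with Fzd3 serves planar polarity and, in mice, sets the direction of hairs. Fzd1 lies at chr5:4753839-4758035 (minus strand), Fzd7 at chr1:59482424-59486955, Fzd2 at chr11:102604396-102608058 and Fzd6 at chr15:39006034-39038188 (plus strand). Fzd1 had 58.6, 43.6 and 61.2 FPKM in the nitrate, 22.4, 38.9 and 36.2 FPKM in the bleomycin and 17.4, 23.8 and 21.9 FPKM in the control libraries. Fzd7 had 28.7, 29.6 and 25.5 FPKM in the nitrate, 15.1, 18.6 and 11.7 FPKM in the bleomycin and 12.8, 17.1 and 14.6 FPKM in the control libraries. For these receptors each nitrate library was above each bleomycin and each control library, which held for Fzd2 and Fzd6 too. Fzd2 had 16.5, 14.5 and 18.5 FPKM in the nitrate, 8.66, 10.1 and 9.505 FPKM in the bleomycin and 8.84, 9.89 and 8.97 FPKM in the control libraries. Fzd6 had 24.1, 17.9 and 22.2 FPKM in the nitrate, 11.2, 16.7 and 12.6 FPKM in the bleomycin and 9.18, 8.58 and 12.2 FPKM in the control libraries. For Fzd2 and Fzd7 the bleomycin and control libraries overlapped, and bleomycin minus control was 0.02 (95% interval -0.24 to 0.29) and 0.02 (-0.38 to 0.41).

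The nitrate means were 2.59, 1.89, 1.79 and 2.14 times those of control for Fzd1, Fzd7, Fzd2 and Fzd6. The differences were 1.33 ± 0.23 for Fzd1 (adjusted p = 0.0193), 0.88 ± 0.17 for Fzd7 (adjusted p = 0.0265), 0.77 ± 0.12 for Fzd2 (adjusted p = 0.0144) and 1.03 ± 0.19 for Fzd6 (adjusted p = 0.0218). Against bleomycin the same receptors were 1.68, 1.85, 1.75 and 1.59 times as high in nitrate and did not pass. These differences were 0.75 ± 0.23 for Fzd1 (adjusted p = 0.159), 0.86 ± 0.17 for Fzd7 (adjusted p = 0.0962), 0.75 ± 0.12 for Fzd2 (adjusted p = 0.0619) and 0.64 ± 0.19 for Fzd6 (adjusted p = 0.1503). The value of Fzd2 equalled the smallest adjusted p of the 14645 genes in that comparison. Benjamini-Hochberg adjustment gives the same value to several genes, as it did here, so this does not rank Fzd2 first.

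In the alternatives these 4 differences ranged from 0.90 to 1.48 for Fzd1, 0.78 to 0.98 for Fzd7, 0.66 to 0.86 for Fzd2 and 0.78 to 1.17 for Fzd6. The 4 calls were lost with the follicle list in the fit, where the differences were 0.90, 0.89, 0.66 and 0.78 (adjusted p = 0.108 for Fzd1, 0.159 for Fzd7, 0.125 for Fzd2 and 0.165 for Fzd6) and without both follicle-low libraries (0.0671, 0.123, 0.0836 and 0.0985). Without control 1 or control 2 each of them was lost too (0.0689 and 0.0674 for Fzd1, 0.0888 and 0.0709 for Fzd7, 0.0580 and 0.0569 for Fzd2, 0.0759 and 0.0900 for Fzd6), as were those of Fzd1, Fzd7 and Fzd6 without nitrate 1 or nitrate 3 (0.0517 to 0.0715), and that of Fzd7 without control 3 (0.0551). With no filter on low genes the calls of Fzd7 and Fzd6 ended as well (0.0644 and 0.0536).

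Fzd10, Fzd5, Fzd9, Fzd8 and Fzd3 passed in no comparison. Fzd10 had 16.9, 12.9 and 28.6 FPKM in the nitrate, 6.64, 15.1 and 12.5 FPKM in the bleomycin and 6.90, 6.39 and 12.6 FPKM in the control libraries. Fzd5 had 10.3, 3.02 and 10.4 FPKM in the nitrate, 1.75, 3.26 and 5.06 FPKM in the bleomycin and 1.56, 1.40 and 4.17 FPKM in the control libraries. In Fzd5, nitrate 2 lay within the other groups and the other 2 nitrate libraries far above them, and without nitrate 2 its nitrate minus control difference was 1.84 (adjusted p = 0.0240, against 1.34 and 0.107 with it). Fzd9, the receptor nearest in sequence to Fzd10, ran the other way, with 1.95, 3.48 and 1.19 FPKM in the nitrate, 4.04, 1.08 and 5.04 FPKM in the bleomycin and 4.39, 8.77 and 6.77 FPKM in the control libraries. Its nitrate libraries were all below the control libraries, and the difference of -1.27 ± 0.43 did not pass (adjusted p = 0.0924). Fzd8, the relative of Fzd5, had 4.02, 4.06 and 3.61 FPKM in the nitrate, 3.10, 3.76 and 2.63 FPKM in the bleomycin and 3.75, 4.30 and 5.81 FPKM in the control libraries. Fzd3 had 2.52, 1.27 and 1.97 FPKM in the nitrate, 0.872, 1.65 and 0.819 FPKM in the bleomycin and 1.06, 1.25 and 1.29 FPKM in the control libraries.

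The make-up of the receptor pool differed accordingly. Fzd1 held 31.8 ± 2.38% of the summed Frizzled FPKM in nitrate, 29.5 ± 4.76% in bleomycin and 18.6 ± 0.838% in control skin (SD, n = 3 each). Fzd4 held 9.04 ± 3.82%, 15.2 ± 5.22% and 30.7 ± 2.72% in the same order, so that it led the pool in control and Fzd1 led it in both treated groups. These shares follow from the levels above and are not independent of them.

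**Figure D2:**
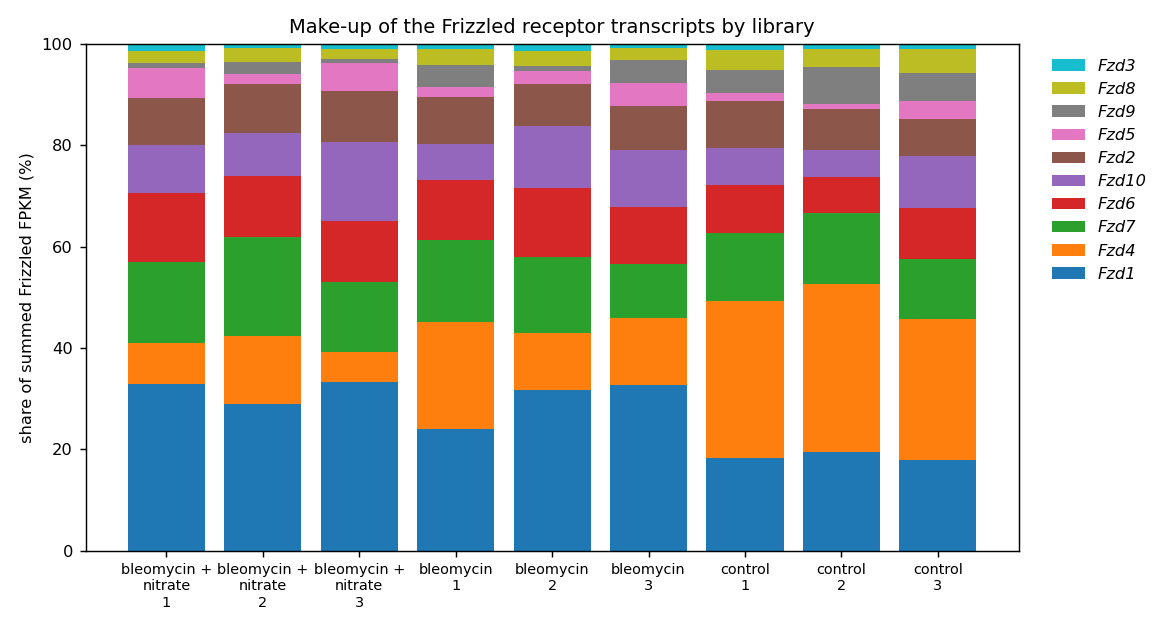
Share of the summed Frizzled FPKM held by each of the 10 receptors, as stacked bars in percent for each library. In the 3 control libraries Fzd4 holds 27.8 to 33.2% and Fzd1 17.9 to 19.5%, and in the 6 treated libraries Fzd4 holds 5.86 to 21.1% and Fzd1 24.0 to 33.3%.

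Of the 8 tested secreted inhibitors, Sfrp2 rose and Frzb fell with bleomycin against control, beside 4.74% of all genes higher and 3.69% lower. Both encode proteins with a domain related to the ligand-binding part of Frizzled. Sfrp2 (chr3:83766321-83774316, plus strand) is an extracellular Wnt modulator made by fibroblasts and dermal papilla. It had 4.96, 6.44 and 3.93 FPKM in the nitrate, 20.7, 23.7 and 15.9 FPKM in the bleomycin and 1.97, 6.38 and 2.27 FPKM in the control libraries. The 3 bleomycin libraries stood above the other 6, which overlapped. The bleomycin mean was 5.67 times that of control, with a difference of 2.32 ± 0.34 and adjusted p = 0.00866, the largest difference of the 29 genes in any comparison. The nitrate minus bleomycin difference of -1.79 ± 0.34 did not pass (adjusted p = 0.0938), although the bleomycin mean was 3.93 times that of nitrate. Nitrate minus control was 0.54, with a 95% interval of -0.24 to 1.31. Summed reads behind these values were 611 in nitrate, 2211 in bleomycin and 381 in control.

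Of the 9 fibroblast markers, 2 (Col1a1 and Col1a2) were lower and none higher in bleomycin against control. There 1 of 7 tested dermal papilla markers (Crabp1) and 2 of 7 tested leukocyte markers (Trbc2 and Lyz2) were higher. Over all genes, 4.74% were higher and 3.69% lower in that comparison. The dermal papilla list (10 genes) summed to 39.5 to 48.9 FPKM in nitrate, 87.1 to 144 in bleomycin and 38.8 to 46.2 in control, most of it Crabp1. Its other 9 genes summed to 13.0 to 15.7, 13.5 to 17.4 and 12.5 to 14.3 FPKM in the same order, with overlap of all groups. The part of these lists in the Sfrp2 result was not tested. Without bleomycin 1 and control 1 the Sfrp2 call was lost (2.05, adjusted p = 0.0776), while the remaining 20 alternatives kept it.

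Frzb (chr2:80411970-80447625, minus strand), also named Sfrp3 and known from cartilage, had 0.455, 1.03 and 1.30 FPKM in the nitrate, 1.35, 0.927 and 0.928 FPKM in the bleomycin and 3.72, 5.59 and 4.09 FPKM in the control libraries. All treated libraries were below all control libraries, and the nitrate and bleomycin libraries overlapped. The control mean was 4.18 times that of bleomycin (bleomycin minus control -1.39 ± 0.21, adjusted p = 0.00886) and 4.81 times that of nitrate (nitrate minus control -1.51 ± 0.21, adjusted p = 0.0125). Reads summed to 168 in nitrate, 176 in bleomycin and 718 in control. The bleomycin call was lost without bleomycin 1 and control 1 (adjusted p = 0.0515). The nitrate call was lost without these (0.0666), without control 2 (0.0569) and with the follicle list in the fit (0.0948), at differences of -1.61, -1.37 and -1.45, and voom put the difference at -2.36. Sums of the adipocyte, muscle and endothelial lists, and Col1a1 and Col1a2 of the fibroblast list, were lower in the same libraries as Frzb, and their part was not tested.

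The other inhibitors passed in no comparison. Dkk3, which unlike its relatives does not bind Lrp5 and Lrp6, was the most abundant, with 16.1, 27.7 and 17.9 FPKM in the nitrate, 18.02, 30.7 and 18.2 FPKM in the bleomycin and 9.52, 14.1 and 13.2 FPKM in the control libraries. All 6 treated libraries were above the control libraries. The differences against control were 0.68 ± 0.27 with nitrate (adjusted p = 0.128) and 0.79 ± 0.27 with bleomycin (adjusted p = 0.108). Sfrp1 had 17.2, 12.1 and 26.6 FPKM in the nitrate, 6.02, 19.3 and 10.1 FPKM in the bleomycin and 7.06, 16.2 and 13.5 FPKM in the control libraries. Sfrp5 had 3.41, 7.79 and 4.18 FPKM in the nitrate, 15.2, 7.72 and 5.91 FPKM in the bleomycin and 8.81, 13.7 and 7.51 FPKM in the control libraries. Both overlapped in every pairing. Dkk2 had 9.99, 16.8 and 4.60 FPKM in the nitrate, 3.26, 5.03 and 4.22 FPKM in the bleomycin and 6.16, 6.74 and 7.68 FPKM in the control libraries. Its bleomycin libraries lay below the control libraries, with a difference of -0.61 ± 0.36 (adjusted p = 0.312). Nitrate minus bleomycin was 1.01 ± 0.36 for Dkk2 and did not pass (adjusted p = 0.201), with overlap of these groups.

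Wif1, a Wnt-binding protein, had 9.09, 4.32 and 20.6 FPKM in the nitrate, 2.96, 7.78 and 6.87 FPKM in the bleomycin and 1.51, 2.45 and 4.10 FPKM in the control libraries. Every nitrate library was above every control library, and the difference of 1.57 ± 0.52 did not pass (adjusted p = 0.0881), though without nitrate 2 it was 2.06 and did (adjusted p = 0.0259). Sfrp4 had 1.1996, 2.49 and 2.38 FPKM in the nitrate, 0.411, 0.635 and 1.19 FPKM in the bleomycin and 1.502, 2.45 and 0.661 FPKM in the control libraries. Its nitrate libraries were above the bleomycin libraries (0.79 ± 0.31, adjusted p = 0.231). Dkk1 and Dkk4, the inhibitors of Lrp5 and Lrp6 that beta-catenin itself induces, were near 0, with 4, 2 and 3 reads for Dkk1 and 1, 0 and 4 reads for Dkk4 summed over the nitrate, bleomycin and control libraries. No difference in Dkk1 or Dkk4 was detectable at this depth.

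**Figure D3:**
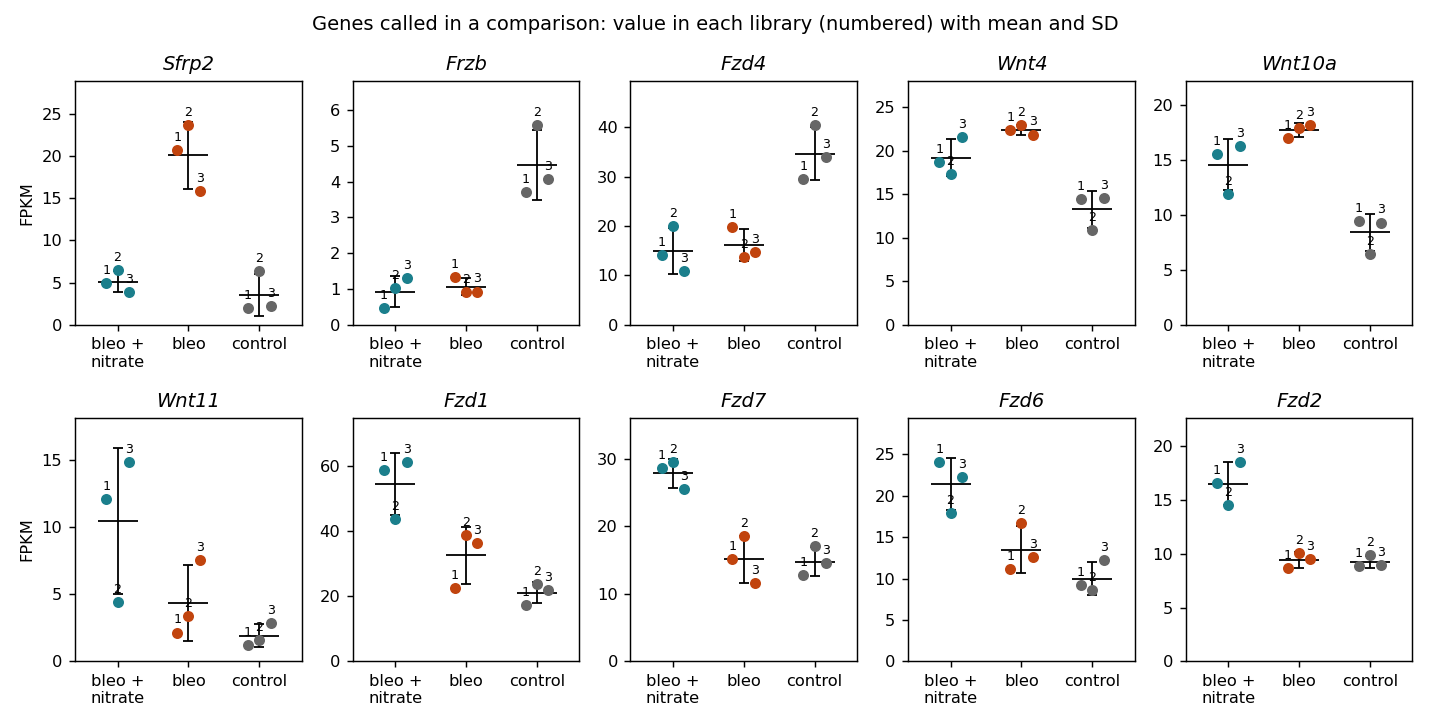
FPKM of the 10 genes called in at least 1 comparison, with 1 numbered point per library and the mean and SD of each group (n = 3) in black. Sfrp2 is high in the bleomycin group, at 15.9 to 23.7 FPKM, Frzb and Fzd4 are high in control, and Fzd1, Fzd7, Fzd6 and Fzd2 are highest in the nitrate group.

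Counted over the family, bleomycin against control called 5 of the 29 genes, beside 8.43% of all 14645 genes. Of these 3 were higher, beside 4.74% of all genes, and 2 lower, beside 3.69%. Nitrate against control called 8 of 29, beside 8.53% of all genes, with 6 higher beside 3.63% and 2 lower beside 4.90%. These 2 comparisons share their control libraries, and nitrate against bleomycin shares libraries with both. Nitrate against bleomycin called 0 of 29 and 0% of all genes with limma. At an unadjusted p under 0.05 there were 8 of the 29 and 2624 of all genes, and voom on recovered reads also called 0 of both. No alternative called any of the 29 in that comparison.

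Groups did not overlap in 8 of the 29 genes for bleomycin against control, beside 35.7% of all genes. They did not overlap in 9 of 29 for nitrate against bleomycin, beside 21.2%, nor in 14 of 29 for nitrate against control, beside 34.8%. For nitrate against control 11 of these 14 were higher, beside 17.3% of all genes, and 3 lower, beside 17.5%. The median difference of the 29 genes was 0.03 for bleomycin against control, 0.36 for nitrate against bleomycin and 0.54 for nitrate against control, beside 0.01, -0.00 and 0.02 over all genes. By role, the median for nitrate against control was 0.51 for 11 ligands, 0.82 for 10 receptors and 0.46 for 8 inhibitors. These are descriptions of the list and carry no test. Over the 29 genes, 18 had their highest library in the nitrate group, 6 in the bleomycin group and 5 in the control group, with 12 of the 18 in nitrate 3, the library highest in follicle genes. The same count was not made over all genes, so it cannot be read as a trait of the family.

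**Figure D4:**
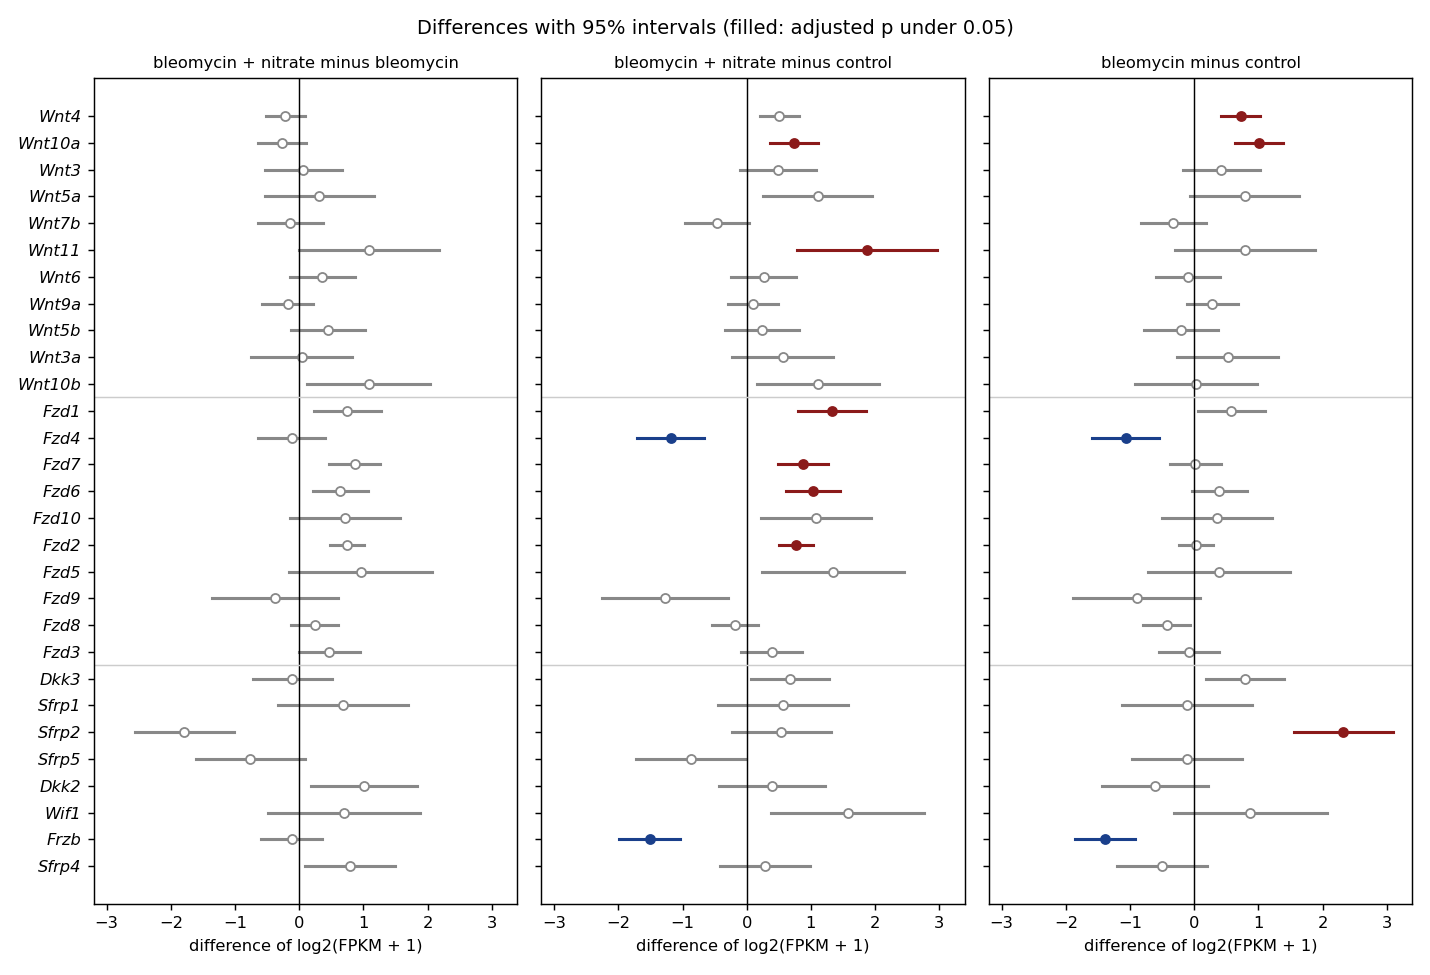
Differences of log2(FPKM + 1) with 95% intervals for the 29 tested genes in 3 comparisons, with filled points where the adjusted p was under 0.05 (red higher, blue lower). The left panel has no filled point. In it the intervals of Fzd1, Fzd7, Fzd6, Fzd2, Wnt10b, Dkk2 and Sfrp4 lie above 0, while that of Sfrp2 lies below.

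Since anagen follicles express many Wnt genes, each gene was fitted against the mean of the follicle list, with the groups as a factor. No Wnt family gene was called, beside 0.964% of 14624 genes. Slopes of the 8 genes with the smallest p follow. Per unit of the list mean, log2(FPKM + 1) changed by 0.23 ± 0.07 for Wif1, 0.22 ± 0.06 for Fzd5, 0.21 ± 0.06 for Wnt11 and 0.18 ± 0.06 for Sfrp1 (adjusted p = 0.396, 0.408, 0.352 and 0.583). It changed by 0.16 ± 0.05 for Fzd10, 0.15 ± 0.05 for Wnt5a, 0.10 ± 0.03 for Fzd1 and -0.14 ± 0.06 for Sfrp5 (adjusted p = 0.457, 0.570, 0.357 and 0.702). The slope of Fzd5 passed without control 1 and bleomycin 1 (0.52, adjusted p = 0.0211), and that of Sfrp5 without control 1 (-0.24, adjusted p = 0.0403). For Frzb, Sfrp2 and Wnt4 the slopes were -0.01 ± 0.04, -0.02 ± 0.07 and 0.00 ± 0.03. With the list mean as a term, bleomycin minus control kept all 5 calls and nitrate against control kept 0 of 8, while over all genes nitrate against control called 9 in place of 1249. The 8 differences kept their sign, and they were 0.89 for Fzd7 with the term against 0.88 without it, -1.45 against -1.51 for Frzb, 0.66 against 0.73 for Wnt10a and 0.99 against 1.87 for Wnt11.

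**Figure D5:**
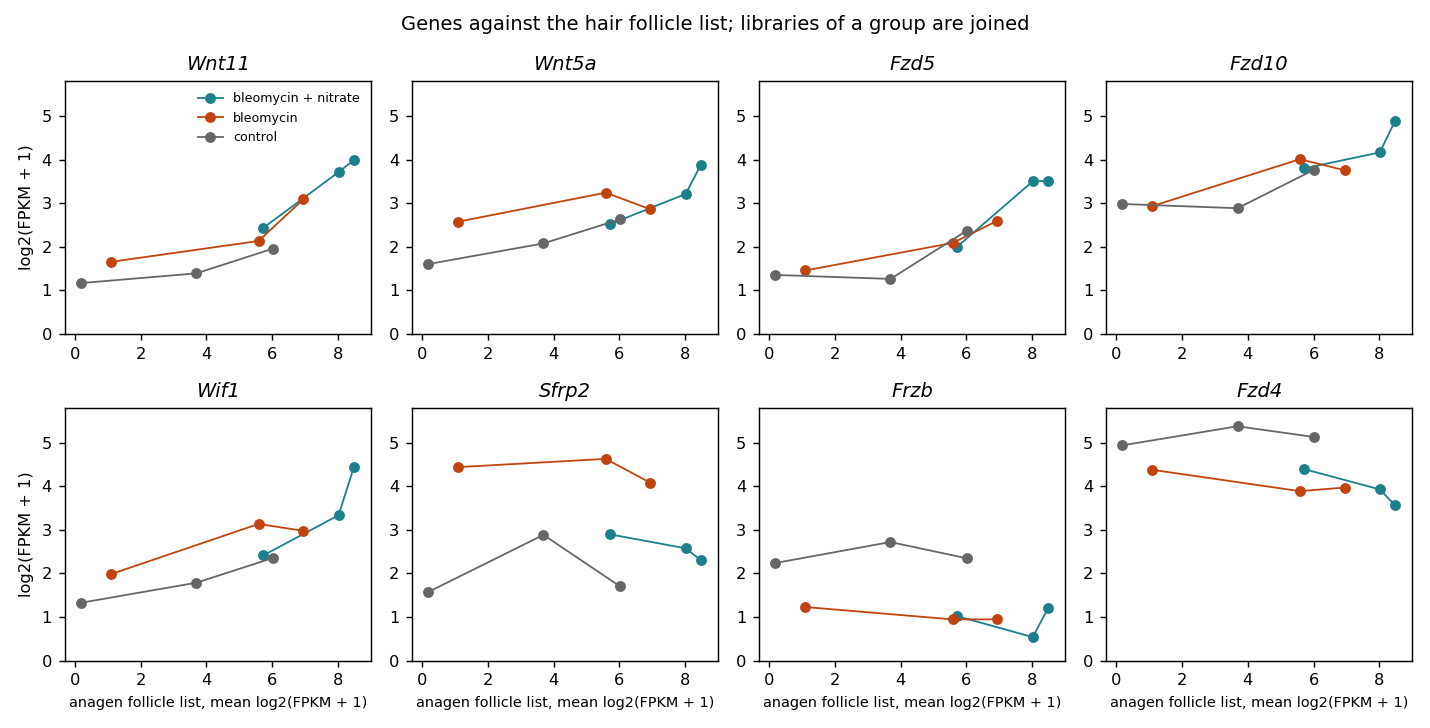
log2(FPKM + 1) of 8 genes against the mean log2(FPKM + 1) of 21 anagen follicle genes, with the libraries of a group joined in order of that mean. Wnt11 climbs with the follicle mean in all 3 groups, while the bleomycin libraries lie above all others for Sfrp2, and the control libraries for Frzb and Fzd4, across its range.

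Other genes of the pathway were counted by lists. Over all genes, 8.43% were called for bleomycin against control and 8.53% for nitrate against control, and the counts by list stand beside these shares. Among 9 co-receptors and related receptors, Ptk7, a planar polarity co-receptor, was the 1 gene called. It had 23.6, 22.01 and 31.8 FPKM in the nitrate, 20.1, 36.4 and 20.7 FPKM in the bleomycin and 10.8, 9.88 and 14.1 FPKM in the control libraries. It was higher with nitrate (1.09 ± 0.25, adjusted p = 0.0369) and with bleomycin (1.05 ± 0.25, adjusted p = 0.0383) than in control. Of 7 tested genes of a list of R-spondins, Lgr receptors, Rnf43 and Znrf3, Rspo1 fell in both. R-spondins act with Lgr receptors to raise the number of Frizzled receptors at the cell surface. Rspo1 had 2.502, 3.32 and 3.15 FPKM in the nitrate, 1.55, 3.04 and 1.23 FPKM in the bleomycin and 7.96, 7.18 and 8.46 FPKM in the control libraries. The differences were -1.16 ± 0.21 with nitrate (adjusted p = 0.0226) and -1.64 ± 0.21 with bleomycin (adjusted p = 0.00603). Lgr5, an R-spondin receptor and stem cell marker of the follicle, had 5.70, 3.97 and 5.46 FPKM in the nitrate, 1.45, 2.43 and 2.02 FPKM in the bleomycin and 1.58, 1.90 and 2.10 FPKM in the control libraries. It rose in nitrate against control (1.07 ± 0.17, adjusted p = 0.0167), and the difference against bleomycin did not pass (1.03 ± 0.17, adjusted p = 0.0781).

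Of 9 tested genes of Wnt release and other extracellular control, 2 were higher than control with nitrate and 1 with bleomycin, beside 3.63% and 4.74% of all genes. Porcn, the enzyme that lipid-modifies Wnt proteins, was higher than control with nitrate (0.85 ± 0.19, adjusted p = 0.0338) and with bleomycin (0.89 ± 0.19, adjusted p = 0.0253). Its levels were 6.19, 4.93 and 6.29 FPKM in the nitrate, 6.18, 7.31 and 4.67 FPKM in the bleomycin and 3.36, 2.06 and 2.95 FPKM in the control libraries. Sostdc1, a secreted Wnt and BMP antagonist, was higher with nitrate than in control (1.01 ± 0.22, adjusted p = 0.0339). Of 20 genes of the beta-catenin route, 1 rose and 1 fell with bleomycin against control, beside 4.74% and 3.69% of all genes. Csnk1a1, a kinase of the destruction complex, rose (0.48 ± 0.11, adjusted p = 0.0301) and Tcf7l1, a repressing Tcf factor, fell (-1.07 ± 0.14, adjusted p = 0.00583). Tcf7l1 had 7.90, 7.65 and 6.402 FPKM in the nitrate, 3.69, 4.90 and 4.47 FPKM in the bleomycin and 11.7, 10.02 and 9.07 FPKM in the control libraries. The nitrate libraries lay between the others without overlap, and nitrate minus bleomycin did not pass (0.64 ± 0.14, adjusted p = 0.107). The 7 genes of a follicle bulge list, which holds neither Lgr5 nor Tcf7l1, summed to 288 to 398 FPKM in nitrate, 87.4 to 169 in bleomycin and 368 to 484 in control, most of it the keratin Krt15. The other 6 summed to 49.6 to 66.2, 35.3 to 39.5 and 34.1 to 44.1 FPKM in the same order, and the part of this list was not tested. Tle3, a Groucho co-repressor, was the 1 gene of the beta-catenin route that rose in nitrate against control (0.91 ± 0.19, adjusted p = 0.0313). So did 2 of 11 tested planar polarity genes, Celsr2 (1.07 ± 0.23, adjusted p = 0.0316) and Scrib (0.45 ± 0.10, adjusted p = 0.0345), beside 3.63% of all genes.

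None of 9 tested feedback targets of beta-catenin was called in any comparison, beside 8.43% of all genes for bleomycin and 8.53% for nitrate against control. Axin2, the most general of them, had 5.22, 7.02 and 9.09 FPKM in the nitrate, 4.61, 5.59 and 4.10 FPKM in the bleomycin and 4.47, 4.35 and 6.31 FPKM in the control libraries. Bleomycin minus control was -0.06 ± 0.20 for Axin2 and 0.32 ± 0.53 for Lef1, and nitrate minus control 0.41 ± 0.20 and 1.26 ± 0.53 (adjusted p = 0.200 and 0.147). Lef1, which follicles express, had 2.65, 0.770 and 6.48 FPKM in the nitrate, 0.181, 0.959 and 1.96 FPKM in the bleomycin and 0.149, 0.501 and 1.05 FPKM in the control libraries, and in each group its order followed that of the follicle list. The list medians over 9 targets were 0.21 for bleomycin against control, 0.49 for nitrate against bleomycin and 0.51 for nitrate against control. Nitrate against bleomycin called none of the genes of these 6 lists.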

How the data were processed

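RNA of mouse skin was sequenced in 9 libraries, grouped by their titles. Per the labels' protocols, RNA came from a column kit and libraries from the SMARTer mRNA kit, and the submitters' processing notes name the build mm10. The sources used here name neither aligner nor counting tool. Values deposited by the authors are FPKM per gene and library. Multiplied by gene length they came, within 0.01, to whole multiples of the worth of 1 read for 100% of values, so reads were recovered. The library size implied was 0.916 to 1.09 times the recovered reads, and how the authors set it is not stated. Every column was mapped to a sample.

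The 39 genes and all gene lists were chosen with earlier results of these data known. Of symbols shared by several genes (102, none of the 39), the most abundant gene stood for the symbol. Genes with at least 1 FPKM in at least 3 libraries were log2-transformed with a pseudocount of 1 and fitted by limma 3.58.1 (R 4.3.3) as 3 group means (eBayes with trend and robust, two-sided), with Benjamini-Hochberg adjustment over all genes tested. The named genes were all members, with values per library for those called or averaging at least 1 FPKM, and by list the called pathway genes with Axin2, Lef1 and Lgr5. The fit was tested on simulated data. Settings were varied 1 at a time: the pseudocount (0.1 or 0.5), the filter (none, or a mean of at least 1 FPKM), the scaling (median of ratios or quantile normalization), a fit of the compared groups alone, a block for the replicate number, sample weights, the follicle list as a covariate, voom on recovered reads, and leaving out each library or both libraries lowest in follicle genes. Of the 39 genes, 38 had the start and end given by GENCODE M21. Figures were drawn with matplotlib 3.10.9.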

Additional observations from a re-analysis of the deposited data

How the results depend on the processing

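No call of the 39 genes changed direction. Of 273 recomputed values of the 13 calls under 21 alternatives, 196 kept their call and 77 lost it. Median-of-ratios scaling, quantile normalization and pseudocounts of 0.1 and 0.5 moved no count of calls by over 1.5 times.

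For bleomycin against control, genes called numbered 1234, and 676 with no filter, 1947 with sample weights and 137 without bleomycin 1 and control 1, where 0 of the 29 Wnt family genes were called in place of 5. Leaving out 1 library gave 334 to 1539 genes and 3 to 5 Wnt family genes, the lowest without control 2 (334 and 3). Any bleomycin or control library left out gave at most 695 genes, with 3 Wnt family genes without bleomycin 2 or bleomycin 3. For nitrate against bleomycin, leaving out 1 library gave 0 to 37 genes, the most without nitrate 1, and 0 Wnt family genes throughout. For nitrate against control, 1249 genes and 8 Wnt family genes became 294 and 3 with no filter, 306 and 5 with only these groups fitted, 9 and 0 with the follicle list as a covariate and 23 and 0 without bleomycin 1 and control 1, and sample weights gave 2085 genes. Leaving out 1 library gave 45 to 2882 genes and 0 to 12 Wnt family genes, the lowest without control 2 and the highest without nitrate 2. They were 83 and 1 without control 1, 711 and 4 without control 3, 474 and 2 without nitrate 1, 170 and 2 without nitrate 3, and 642 and 6 without bleomycin 3. For the follicle slope, 141 genes were called, 91 to 144 with 1 library left out, with 0 to 1 Wnt family genes, and 1 without bleomycin 1 and control 1. The cause of these changes was not tested.

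Same-numbered libraries of different groups had correlations of their deviations of -0.391 to 0.517, over 0.1 in 5 of 9 pairs, so the numbers were not taken to pair libraries. With the replicate number as a block, 10 genes were called for nitrate against bleomycin and 73 for the follicle slope, and Dkk3 passed against control with nitrate (adjusted p = 0.0430) and with bleomycin (adjusted p = 0.0279).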
